A study of Homo sapiens with 12 samples.

Results

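The data described here are the RNA profiles of HCC1806 cells in which PACT, the product of the gene PRKRA, was depleted or left intact. They comprise 6 of the 12 libraries of the study, chosen as all the HCC1806 libraries: 3 from cells with the guide sgPACT-2 and 3 from cells with the control guide sgC1. HCC1806 is an established line from a triple-negative breast cancer, a tumour that lacks estrogen receptor, progesterone receptor and HER2 amplification. The labels give no agent besides the guide, which was used with CRISPR-Cas9. The other 6 libraries are of MDA-MB-468, another triple-negative line, with sgPACT-2 or the control guide sgNTA, 3 of each, and are used here only to ask where HCC1806 differs. Whether the edited cells were a pool or a clone, and how long after guide delivery they were harvested, is not given in the sources used here. The labels do not say that replicates came from separate cultures, so the p-values measure only the spread between these libraries, which may be technical.

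PACT binds double-stranded RNA and pairs with itself and with PKR, the kinase encoded by EIF2AK2. Double-stranded RNA switches PKR on, and the active kinase phosphorylates eIF2alpha. That modification slows general translation and favours translation of ATF4, the factor that drives the integrated stress response. PKR has also been tied to NF-kappaB, a family of dimeric transcription factors held in the cytoplasm by inhibitors and known for inducing those same inhibitors, cytokines and survival genes. According to its title, the study is about PACT as a suppressor of PKR, and the comparison asks what the loss of PACT did to the transcriptome of this line.

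The 6 libraries held 18640633 to 24704877 counted reads, of which mitochondrial genes took 11.6% to 15.0%. Of the 57500 genes in the table, 41383 had a count in HCC1806 and 23485 were expressed highly enough to be tested. Levels are given as CPM, which are read counts scaled to a common library size. Of the receptors that define the tumour type, PGR had 0 to 9 counts in every library. ESR1 measured 21.4, 22.1 and 25.4 CPM in controls and 26.6, 20.8 and 21.8 CPM in depleted cells, and ERBB2, encoding HER2, was at 156.5 to 230.9 CPM. Of 14 markers of leukocytes, endothelium and fibroblasts, 9 were too low to test, with CD3E at 0 and LYZ at no more than 1 count. The 5 tested markers summed to 36.6, 55.0 and 42.2 CPM in controls and 46.0, 63.7 and 64.9 CPM in depleted cells, mostly from COL1A1. Libraries also varied by replicate number. In a principal component analysis of 15626 genes (mean count of 50 or more), the first component (42.9% of variance) set both replicate 1 libraries (-23.5 and -36.4) apart from the others (2.41 to 31.5). The second (29.9%) separated control libraries, at 14.5 to 21.6, from depleted ones, at -25.3 to -12.4. Depleted replicate 1 stood farthest out on both components.

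The targeted transcript was lower in every depleted library. PRKRA (GRCh38 chromosome 2, 178431414 to 178451512, minus strand) measured 85.1, 91.8 and 79.7 CPM in the control libraries and 41.3, 40.3 and 41.6 CPM in the depleted ones. The groups were far apart and the depleted libraries were nearly equal. PRKRA was 2.08-fold lower, a log2 difference of -1.06 (SE 0.11, adjusted p 0.00311 by edgeR's quasi-likelihood test with Benjamini-Hochberg adjustment over all 23485 genes). It stayed past the threshold when any 1 library was left out. PACT protein is not measured by these data, and a cut by Cas9 can spare the RNA. Reads of AC009948.1 and PJVK, which overlap PRKRA on the other strand, may be included, since the strand setting of the counting is not given in the sources used here. The transcript of PKR itself was not shown to change: EIF2AK2 measured 265.0, 256.1 and 215.7 CPM in controls and 171.9, 188.7 and 208.0 CPM in depleted cells, with a log2 difference of -0.37 (SE 0.13, adjusted p 0.303). All 3 depleted libraries lay below the controls. Of the 28 genes for double-stranded RNA binding, RNA sensing and eIF2alpha kinases that were tested, PRKRA fell, RIGI rose and the other 26 did not pass. Of all genes tested, 0.277% rose and 0.0383% fell. The median of the 28 was -0.05, with a sign that changed to 0.06 when libraries were scaled by size only. Around the gene, the 80 genes within 10 Mb of PRKRA that had a mean count of 50 or more had a median log2 fold change of -0.26, against -0.01 for 14563 genes on other chromosomes. None of the 80 passed the quasi-likelihood test, and 21 of them had all depleted libraries below all controls, as did 1489 of the 14563.

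Across all genes, increases outnumbered decreases, although log2 fold changes above 0 made up only 52.2% of all genes tested. An adjusted p under 0.05 was reached by 74 of the 23485 genes (0.315%), of which 65 rose (0.277%) and 9 fell (0.0383%); 2696 genes had an unadjusted p under 0.05, 1403 of them higher and 1293 lower. The rises were also larger: their median log2 fold change was 1.85, and 60 of the 65 rose by at least 1 on the log2 scale, against a median of -0.73 and 2 of 9 for the falling genes. The median over all genes tested was 0.02. Groups without overlap were found for 4142 genes (17.6%), among them all 74; the depleted libraries were the higher ones in 9.39% of all genes and the lower ones in 8.25%. Protein-coding genes made up 56 of the rising and 8 of the falling genes.

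The number of changed genes differed widely between fits. With replicate number added to the model as a block, 668 genes passed (2.84%), 321 higher (1.37%) and 347 lower (1.48%), including all 74. Leaving out depleted replicate 1 gave 428 genes, again including all 74. Leaving out control replicate 1, 2 or 3 gave 18, 35 and 18 genes, and leaving out depleted replicate 2 or 3 gave 33 and 44.

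**Figure D1:**
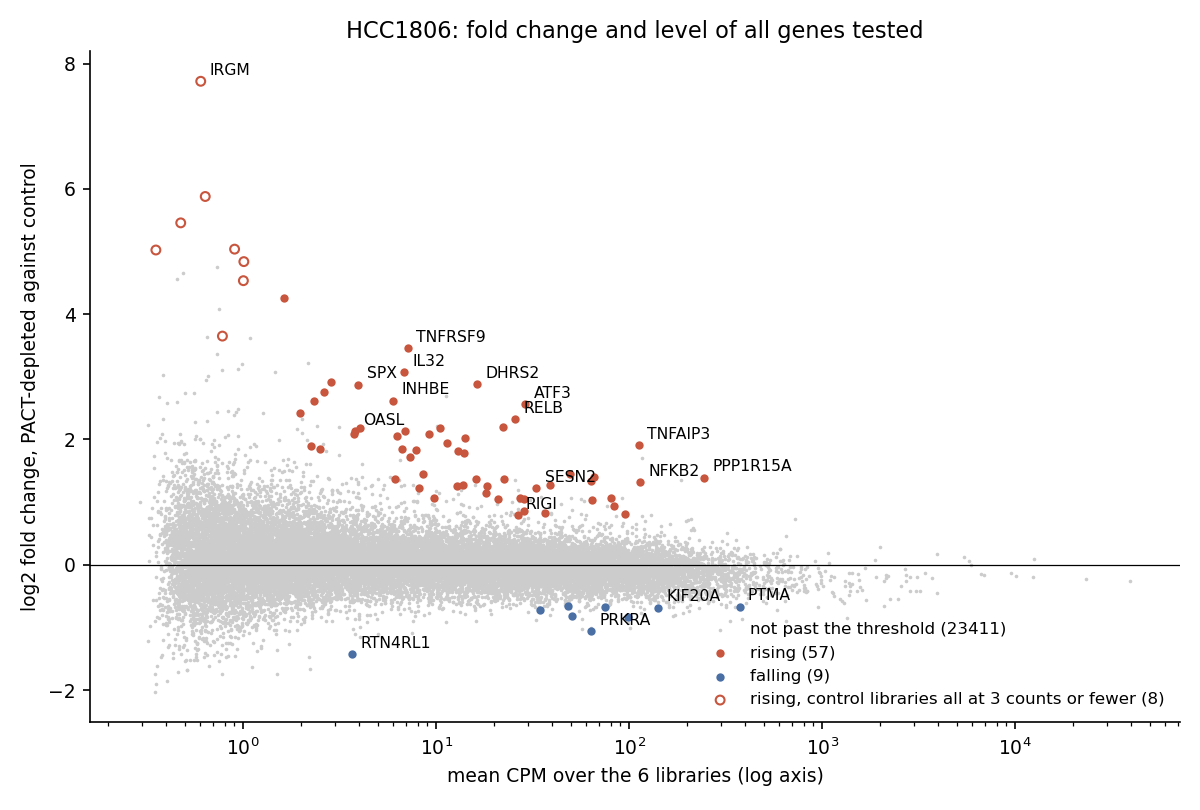
Log2 fold change of PACT-depleted against control HCC1806 cells (vertical axis) against the mean CPM over the 6 libraries (horizontal, log axis), 1 point per gene tested. The 65 rising genes, 8 of them with control libraries at 3 counts or fewer (open circles, whose fitted value depends on the prior count), have a median of 1.85 and the 9 falling genes one of -0.73.

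A core of 17 genes passed the threshold in the main test and in each of 15 other fits, among them the 6 that left out 1 library. Of these, 16 rose: TNFRSF9, IL32, DHRS2, SPX, INHBE, ATF3, RELB, BIRC3, LRRC49, ARRDC4, SLC43A2, DUSP8, PPP1R15A, NFKB2, SESN2 and TRIB3. The falling member was PRKRA. TRIB3 came closest to the threshold, with a highest adjusted p of 0.04997 over those fits. In the plot of these 17 genes the 2 groups are apart in each row, for transcripts below 1 CPM in controls and for those above 100 CPM alike. The other 57 of the 74 genes each missed the threshold in at least 1 of these fits.

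**Figure D2:**
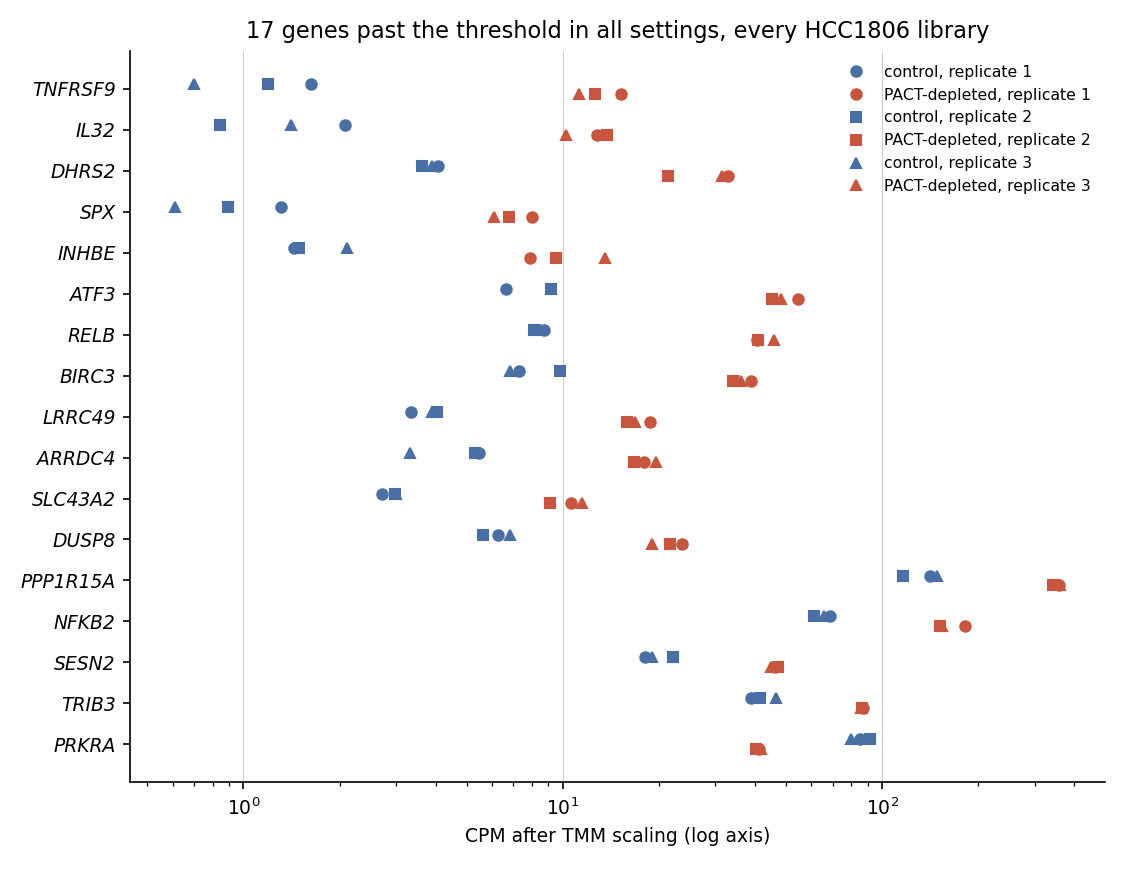
Level of the 17 genes in each HCC1806 library (CPM, log axis), controls in blue and PACT-depleted libraries in red, with a symbol per replicate number. Control and depleted libraries are separate in every row; TNFRSF9 lies at 0.702 to 1.62 CPM in controls and 11.2 to 15.2 CPM in depleted cells.

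NF-kappaB subunits, inhibitors and feedback targets formed one of the groups with the most rising members. Of the 26 tested, 7 rose against 0.277% of all genes, 25 had a positive log2 fold change, and the median was 0.58 against 0.02 over all genes. In 16 of the 26 all depleted libraries lay above all controls, against 9.39% of all genes. With the replicate block 16 rose, against 1.37% of all genes. Without depleted replicate 1, 12 rose, in a fit that called 428 genes in all, 219 of them higher. RELB, a subunit of the non-canonical pathway, had the smallest adjusted p of all genes tested. It measured 8.75, 8.10 and 8.52 CPM in controls and 40.7, 40.9 and 46.0 CPM in depleted cells. The 3 depleted libraries lay far above the controls, the difference being 2.33 on the log2 scale (SE 0.13, adjusted p 8.35e-05). NFKB2, which encodes the p100 precursor and partner of RELB, went from 68.6, 61.0 and 65.9 CPM to 182.0, 151.8 and 153.7 CPM, a difference of 1.32 on the log2 scale (SE 0.12, adjusted p 0.0014).

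Regulators of the pathway rose with these subunits. BIRC3, the ubiquitin ligase cIAP2 and a survival gene, measured 7.26, 9.79 and 6.83 CPM in controls and 38.9, 34.2 and 36.0 CPM in depleted cells (log2 fold change 2.19, SE 0.17, adjusted p 0.000392). TRAF1, a signalling adaptor of TNF receptors, rose by 2.05 (SE 0.32, adjusted p 0.0299). Negative regulators were among them: the deubiquitinase CYLD rose by 1.07 (SE 0.16, adjusted p 0.0222) and the inhibitor NFKBIE, encoding IkappaB epsilon, by 1.07 (SE 0.17, adjusted p 0.0306). TNFAIP3, the ubiquitin-editing inhibitor A20, was the most uneven. It measured 62.1, 41.4 and 37.9 CPM in controls and 286, 130.3 and 116.6 CPM in depleted cells, so replicate 1 was highest in both groups and depleted replicate 1 stood far above the rest. On the log2 scale it rose by 1.91 (SE 0.32, adjusted p 0.0439), and it passed in only 2 of the 6 fits that left out a library, with an adjusted p of 0.00153 without depleted replicate 1. TNFAIP3 and NFKBIE fell outside the rule for naming genes and were chosen after their values were seen.

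Promoter sequence is shown for the rising genes because the kappaB letters recurred in it. RefSeq windows of 300 bases, from 250 before to 50 after a listed transcription start (GRCh38.p14), were found for 50 of the 74 genes, 43 rising and 7 falling. The kappaB letters, GGG and TTCC separated by any 3 bases, were searched on both strands. They stood in a window of 10 of the 43 rising genes (23.3%), against 7.83% of 27305 genes with a window and 9.64% of the 13175 that were tested. A gene counted if any window of its listed starts matched. The 27305 genes had 35116 windows, while NFKB2, SLC43A2 and CYLD had 3 each, and the number of windows per gene was not adjusted for. Of the 5 rising genes of the NF-kappaB list with a window, 4 had a match. That list holds known feedback targets of NF-kappaB, and its members that did not rise were not counted apart, so this count is a description. The sites of these 4 and of TNFRSF9 are given 5′ to 3′ on the gene's strand, with the matching letters in capitals. A match on the other strand reads GGAA, any 3 bases, then CCC.
BIRC3: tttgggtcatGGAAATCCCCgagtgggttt
NFKB2: tggtattttcGGGACTTTCCtaagctgctc
CYLD: ttgacagagcGGAAAGTCCCttcggccggc
TNFAIP3: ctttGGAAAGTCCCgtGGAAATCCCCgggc
TNFRSF9: agctgtggtGGGAATTTCCCatgagacccc
The BIRC3 site lies at chr11:102317275-102317304 and that of NFKB2 at chr10:102395674-102395703, both on the plus strand. The site of CYLD is at chr16:50741887-50741916 and that of TNFAIP3 at chr6:137867188-137867217, also on the plus strand. The TNFRSF9 site is at chr1:7940893-7940922 on the minus strand, where matches on both strands overlap. TNFAIP3 has 2 matches side by side within the 30 bases shown. Matches also stood at LRRC49, IL32, SLC43A2, RIGI and KDM6B, and at 1 of the 7 falling genes, DLGAP5. The CARE letters are given with the stress genes, and 5 more motifs were searched in the same way: AP-1 (TGANTCA) stood in 6 of the 43 rising genes and 9.37% of all, CRE (TGACGTNA) in 11.6% and 3.63%, the antioxidant element (TGACNNNGC) in 20.9% and 16.1%, the cell cycle element CHR (TTTGAA) in 20.9% and 18.2%, and the interferon element (a pair of GAAA separated by any 2 bases) in 4.65% and 4.38%. Among the tested genes with a window, the shares were 7.76% for AP-1, 5.2% for CRE, 18.8% for the antioxidant element, 14.1% for CHR and 3.92% for the interferon element. A match is a description of these letters, not a binding site, and binding was not measured here.

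Among TNF superfamily and cytokine genes, 1 of each list rose, both by more than 3 on the log2 scale. Of all genes tested, 0.277% rose in the main fit and 1.37% with the replicate block. TNFRSF9, the costimulatory receptor 4-1BB, measured 1.62, 1.19 and 0.702 CPM in controls and 15.2, 12.6 and 11.2 CPM in depleted cells. The groups were separated by a wide gap, with a log2 difference of 3.46 (SE 0.29, adjusted p 0.000728). It was the one member of 20 tested TNF superfamily genes to pass, while 10 of the 20 had positive values and the median was -0.01, a sign that turned with scaling by library size only (0.09). With the replicate block 3 passed, one of them TNF, which stood at 0.226, 0.547 and 0.140 CPM in controls and 4.16, 2.42 and 1.27 CPM in depleted cells (adjusted p 0.0683, and 0.00509 with the block). IL32, a proinflammatory cytokine gene, rose from 2.08, 0.845 and 1.40 CPM to 12.8, 13.7 and 10.2 CPM (log2 fold change 3.07, SE 0.30, adjusted p 0.00183). It was the one member of 23 tested cytokine and chemokine genes to pass, although 20 had positive values and the median was 1.03. In 12 of the 23 all depleted libraries lay above all controls, against 9.39% of all genes. With the block 8 passed, among them CXCL8, CCL5 and EBI3. CXCL8, encoding the neutrophil attractant interleukin-8, measured 18, 13.0 and 11.9 CPM in controls and 54.7, 31.3 and 24.3 CPM in depleted cells (log2 fold change 1.36, SE 0.28, adjusted p 0.0879, and 0.000304 with the block). The groups did not overlap, and replicate 1 was highest in both.

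Interferon-stimulated genes rose in 2 of 34 tested members, against 0.277% of all genes; 23 had positive values and the median was 0.17. With the block 5 rose, against 1.37%. OASL, an OAS-like protein that boosts RIG-I signalling, measured 1.49, 1.14 and 1.59 CPM in controls and 6.37, 5.23 and 6.93 CPM in depleted cells, a log2 difference of 2.13 (SE 0.25, adjusted p 0.00636). RIGI, encoding the RNA sensor RIG-I, measured 20.4, 19.2 and 18.5 CPM and then 35.1, 30.02 and 35.1 CPM (log2 fold change 0.79, SE 0.13, adjusted p 0.0367). Both had depleted libraries well above the controls. The interferon genes themselves were barely read: IFNL2 and IFNL3 had 0 counts in each of the 6 libraries, IFNL1 had at most 1, and IFNB1 had 1, 0 and 1 counts in controls and 1, 4 and 9 in depleted cells. At this depth no change of theirs could be detected.

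Targets of the integrated stress response made up another group with many rising members. Of 34 tested, 7 rose, against 0.277% of all genes, 29 had positive values and the median was 0.38; 17 had depleted libraries above all controls, against 9.39%. With the replicate block 15 rose, against 1.37% of all genes, and 1 fell, against 1.48%. Without depleted replicate 1, 14 rose and 1 fell, in a fit that called 428 genes in all, 219 of them higher. ATF3, a stress-induced bZIP factor, measured 6.63, 9.20 and 9.17 CPM in controls and 54.7, 45.2 and 48.3 CPM in depleted cells. Every depleted library was far above every control, at a log2 difference of 2.57 (SE 0.16, adjusted p 0.000143). PPP1R15A, the GADD34 subunit that directs a phosphatase to eIF2alpha and so ends the response, was already abundant and went from 142, 116 and 148 CPM to 357, 343 and 362 CPM (log2 fold change 1.39, SE 0.13, adjusted p 0.00135). INHBE, encoding a secreted activin subunit, rose from 1.44, 1.49 and 2.11 CPM to 7.88, 9.49 and 13.6 CPM (log2 fold change 2.62, SE 0.28, adjusted p 0.00311).

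Other members of that list act as brakes or in cell death. SESN2, a brake on mTORC1, measured 18.1, 22.1 and 19.0 CPM in controls and 46.3, 47.2 and 45 CPM in depleted cells (log2 fold change 1.23, SE 0.13, adjusted p 0.00309). TRIB3, a pseudokinase that feeds back on ATF4 and CHOP, rose by 1.03 (SE 0.12, adjusted p 0.00431). CHAC1, which degrades glutathione, rose from 3.43, 4.67 and 8.47 CPM to 20.2, 23.2 and 24.1 CPM (log2 fold change 2.03, SE 0.28, adjusted p 0.0153), with an uneven control level. BBC3, encoding the BH3-only protein PUMA, rose by 1.45 (SE 0.25, adjusted p 0.0469). DDIT3, which encodes CHOP, and ASNS, which makes asparagine, missed the threshold: their log2 fold changes were 0.81 (SE 0.15, adjusted p 0.0607) and 1.04 (SE 0.19, adjusted p 0.0537), and their values with the block were 0.00484 and 0.000354. CHAC1, DDIT3 and ASNS were chosen after their values were seen. The 20 aminoacyl-tRNA synthetase genes had a median of 0.02, which was -0.05 without depleted replicate 1. None of them passed the quasi-likelihood test, 4 had an unadjusted p under 0.05, and 2 rose with DESeq2, with voom and with the block. With the block 1.37% of all genes rose. DESeq2 called 333 genes in all, 199 of them higher, and voom called 326, 176 of them higher.

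The letters TGATGNAA of a C/EBP-ATF response element (CARE), the composite site known to bind ATF4 with a C/EBP partner, were searched in the same windows. They stood in 5 of the 43 rising genes (11.6%), against 4.46% of all 27305 genes and 3.04% of those tested. That list is of ATF4 and CHOP targets, and its members that did not rise were not counted apart. The count for its rising genes, 2 of the 6 with a window on the stress list, is therefore a description. The 2 sites are shown with the matching letters in capitals, read on the gene's strand.
ATF3: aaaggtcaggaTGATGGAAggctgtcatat
CHAC1: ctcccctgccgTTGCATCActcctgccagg
The ATF3 site lies at chr1:212565205-212565234 and the CHAC1 site at chr15:40953251-40953280, both on the plus strand of GRCh38.p14. The CHAC1 match is on the other strand. The other 3 genes with these letters were CREB5, TRAF1 and LRRC49, which held the kappaB letters as well.

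Immediate early genes, fast-responding transcription factors, rose in 3 of 24 tested members, against 0.277% of all genes, with 22 positive values and a median of 0.72. With the block 10 rose, against 1.37%. The 3 were ATF3 and the Kruppel-like factors KLF4 and KLF10. KLF4 measured 13.4, 11.9 and 12.3 CPM in controls and 37.6, 27.0 and 32.6 CPM in depleted cells (log2 fold change 1.37, SE 0.15, adjusted p 0.00431), and KLF10 rose by 1.34 (SE 0.16, adjusted p 0.00798). This list was uneven between replicates, the median of its members against the control mean being 1.00, 0.26 and 0.76 in depleted replicates 1 to 3. DUSP8, a phosphatase that inactivates JNK and p38, rose from 6.27, 5.62 and 6.83 CPM to 23.7, 21.6 and 19.0 CPM (log2 fold change 1.78, SE 0.16, adjusted p 0.00135). It was the one of 16 tested MAP kinase feedback genes to pass, against 0.277% of all genes rising. Of the 16, 13 had positive values (median 0.19), and 3 rose with the block, against 1.37% of all genes. Of 24 p53 target genes 2 rose, SESN2 and BBC3, which the stress list holds as well, against 0.277% of all genes. With the block 5 of the p53 targets rose, against 1.37%. CDKN1A, the p21 cell cycle inhibitor, had a log2 difference of 1.01 (SE 0.19, adjusted p 0.0623, and 0.000656 with the block). Of 18 BCL2 family genes 1 rose, BBC3, against 0.277% of all genes. The median of 0.15 was -0.03 without depleted replicate 1.

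Outside these lists stood some of the most stable rises. DHRS2, a mitochondrial and nuclear short-chain dehydrogenase, measured 4.06, 3.63 and 3.88 CPM in controls and 32.8, 21.3 and 31.5 CPM in depleted cells (log2 fold change 2.88, SE 0.20, adjusted p 0.000207). LRRC49, a leucine-rich repeat protein linked to tubulin modification, rose from 3.34, 4.03 and 3.88 CPM to 18.7, 15.8 and 16.8 CPM (log2 fold change 2.19, SE 0.18, adjusted p 0.000557); LARP6 and THAP10 overlap it on the other strand. SPX, encoding the peptide spexin, rose from 1.31, 0.895 and 0.608 CPM to 7.99, 6.78 and 6.07 CPM (log2 fold change 2.88, SE 0.30, adjusted p 0.00311), and overlaps GYS2 on the other strand. For these 3 genes the lowest depleted library exceeded the highest control several times over. ITGAM, an integrin subunit best known from myeloid cells, rose by 2.62 (SE 0.34, adjusted p 0.0104) at 0.515 to 0.895 CPM in controls, while the leukocyte marker PTPRC had 3 to 13 counts in every library. SAA2, an acute phase protein gene, rose by 2.42 (SE 0.34, adjusted p 0.0153); it shares sequence with the SAA2-SAA4 readthrough gene. Of the non-coding genes, CHILL1 rose by 2.76 (SE 0.40, adjusted p 0.0202) and the transcript AC139493.2 by 4.26 (SE 0.62, adjusted p 0.022), from 0.181, 0 and 0.281 CPM to 3.72, 1.89 and 3.65 CPM. The pseudogene RPLP0P2 rose by 2.14 (SE 0.28, adjusted p 0.0104); its reads may belong in part to the ribosomal gene it copies.

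Of the 65 rising genes, 8 had all control libraries at the floor of 3 counts or fewer per library, so their folds are lower bounds. IRGM, a GTPase linked to autophagy, had 0 counts in each control library and 1.08, 0.968 and 1.57 CPM in depleted cells, at least 8.5-fold higher. The bound was at least 13.8-fold for the pseudogene AC097374.1 and at least 10.2-fold for FAM153A. The levels of these genes remained low in depleted cells, at means of 0.69 to 1.95 CPM.

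Clock genes rose in 2 of 19 tested members, against 0.277% of all genes, with 17 positive values and a median of 0.39; 5 rose with the block, against 1.37%. NR1D1, the repressor REV-ERB alpha, measured 31.4, 41.3 and 35.4 CPM in controls and 61.8, 97.1 and 126.6 CPM in depleted cells (log2 fold change 1.40, SE 0.23, adjusted p 0.0359). BMAL1, the activator that NR1D1 represses, measured 8.66, 6.11 and 9.45 CPM and then 19.6, 15.9 and 23.0 CPM (log2 fold change 1.27, SE 0.21, adjusted p 0.0359). The depleted libraries of NR1D1 spread widely but did not reach the controls, and THRA overlaps it on the other strand. GADD45B, a stress-induced growth arrest gene, was the one of 27 caveolar and YAP target genes to rise (log2 fold change 0.86, SE 0.15, adjusted p 0.0439), against 0.277% of all genes. CAV1, the caveolin of the same list, measured 723, 657 and 802 CPM in controls and 487, 448 and 388 CPM in depleted cells (log2 fold change -0.72, SE 0.13, adjusted p 0.0607, and 0.00645 with the block).

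Mitotic genes differed little each, but all in one direction. Of the 34 tested, 2 fell, against 0.0383% of all genes, but all 34 had negative values, from -0.73 to -0.23, with a median of -0.51; the median over all genes was 0.02. In 27 of the 34 all depleted libraries lay below all controls, against 8.25% of all genes. With the replicate block 20 fell, against 1.48%. With DESeq2 10 fell, in a fit that called 333 genes in all, 199 of them higher. Without depleted replicate 1, 14 fell, in a fit that called 428 genes, 219 of them higher. DLGAP5, a spindle assembly factor, measured 46.2, 43.5 and 39.6 CPM in controls and 27.4, 24.8 and 26.1 CPM in depleted cells (log2 fold change -0.73, SE 0.12, adjusted p 0.0425). KIF20A, a kinesin of cytokinesis, measured 181.8, 174.0 and 165.8 CPM and then 107.9, 118.1 and 98.8 CPM (log2 fold change -0.68, SE 0.12, adjusted p 0.0455); BRD8 and CDC23 overlap it on the other strand. Replication genes had values nearer to 0: of 41 tested none passed the quasi-likelihood test, DESeq2, voom or the blocked fit, 5 had an unadjusted p under 0.05, and the median of -0.09 rose to 0.01 with library size scaling. PCNA, the sliding clamp, and MCM2, a helicase subunit, had values of -0.36 (SE 0.12, adjusted p 0.284) and -0.34 (SE 0.13, adjusted p 0.348). The difference between the mitotic and replication lists was not tested.

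Antioxidant targets of NRF2 also held 2 falling members. Of 32 tested, 2 fell, against 0.0383% of all genes, 29 had negative values and the median was -0.50. With the block 16 fell, against 1.48% of all genes, and 1 rose, against 1.37%. Without depleted replicate 1, 7 fell and 1 rose, in a fit that called 428 genes in all, 219 of them higher. NQO1, a quinone reductase, measured 145.6, 118.9 and 114.2 CPM in controls and 80.0, 70.3 and 62.2 CPM in depleted cells (log2 fold change -0.83, SE 0.14, adjusted p 0.0439). NMRAL2P, a transcribed pseudogene known to be induced by NRF2, measured 98.4, 89.3 and 90.4 CPM and then 56.0, 63.9 and 53.6 CPM (log2 fold change -0.68, SE 0.12, adjusted p 0.049). In both genes every depleted library was below every control. HMOX1, the haem-degrading oxygenase of the same list, went the other way, at 9.47, 11.0 and 7.58 CPM in controls and 15.5, 24.4 and 27.4 CPM in depleted cells (log2 fold change 1.27, SE 0.22, adjusted p 0.0528, and 0.00474 with the block). HMOX1 was chosen after its values were seen.

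The remaining falling genes were of varied function. RTN4RL1, a Nogo receptor family member, had the lowest value of the 9: it measured 6.09, 4.67 and 5.29 CPM in controls and 1.67, 2.23 and 2.05 CPM in depleted cells (log2 fold change -1.43, SE 0.24, adjusted p 0.0439). TGFBR3, the TGF-beta co-receptor betaglycan, fell from 69.6, 62.0 and 61.8 CPM to 36.4, 37.3 and 35.6 CPM (log2 fold change -0.82, SE 0.11, adjusted p 0.0153). PTMA, prothymosin alpha, fell by 0.67 on the log2 scale (SE 0.12, adjusted p 0.0482) and the glycosidase gene MYORG by 0.66 (SE 0.11, adjusted p 0.0481). PTMA has many retrotransposed copies, so its reads may be divided among them.

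Several housekeeping and metabolic lists had no member past the quasi-likelihood threshold. For the counts with the block given below, 1.48% of all genes fell in that fit. DESeq2 called 333 genes in all, 199 of them higher, and voom called 326, 176 of them higher. The fit without depleted replicate 1 called 428 genes, 219 of them higher. Glycolytic and hypoxia genes had a median of -0.36 over 29 tested, 24 of them negative, with 9 at an unadjusted p under 0.05; 3 fell with the block, 2 with voom and 1 with DESeq2, but 11 fell without depleted replicate 1. SLC2A1, the glucose transporter GLUT1, measured 692, 570 and 590 CPM in controls and 479, 411 and 320 CPM in depleted cells (log2 fold change -0.61, SE 0.16, adjusted p 0.183). Cholesterol and fatty acid synthesis genes had a median of -0.25 over 27 tested (7 at an unadjusted p under 0.05; 3 fell with the block, and 1 each with DESeq2 and voom). SCD, the stearoyl-CoA desaturase, had the largest of these differences, at -0.86 (SE 0.16, adjusted p 0.063, and 0.00102 with the block). Cytosolic heat shock genes had a median of -0.21 over 22 tested (5 at an unadjusted p under 0.05; 5 fell with the block, 1 with DESeq2 and 2 with voom). ER chaperones had a median of -0.07 over 21 tested, of unstable sign, with 8 at an unadjusted p under 0.05; 2 fell with the block and none with DESeq2 or voom. Cytosolic ribosomal protein genes had negative but small values in 39 of 40, with a median of -0.17 (5 at an unadjusted p under 0.05). In 18 of the 40 all depleted libraries lay below all controls, against 8.25% of all genes. The 13 mitochondrially encoded mRNAs had a median of -0.17 with none at an unadjusted p under 0.05. In both lists DESeq2, voom and the block made no call either. The 12-library model, which called 672 genes in all (314 of them higher), called 1 ribosomal gene as falling.

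Epithelial identity genes were not shown to change either in the main fit. With the block 1.37% of all genes rose and 1.48% fell. DESeq2 called 333 genes in all, 199 of them higher, and voom called 326, 176 of them higher. Of the 29 basal, squamous and luminal genes tested, 12 had an unadjusted p under 0.05 and the median was -0.15; 6 fell and 1 rose with the block, 1 fell with DESeq2 and 3 with voom. KRT5, a basal keratin, measured 667, 831 and 1034 CPM in controls and 354, 413 and 587 CPM in depleted cells (log2 fold change -0.90, SE 0.21, adjusted p 0.138, and 0.000438 with the block). In both groups KRT5 was lowest in replicate 1 and highest in replicate 3, and the groups did not overlap. The 29 mesenchymal and matrix genes had a median of 0.13 that was -0.09 without depleted replicate 1; 11 had an unadjusted p under 0.05. With the block 3 rose and 2 fell, with DESeq2 2 rose and 1 fell, and with voom 1 rose and 1 fell. Of 24 autophagy and mTORC1 brake genes 1 rose, SESN2, against 0.277% of all genes, while 18 had positive values and the median was 0.15. MAP1LC3B, the autophagosome protein LC3B, had a log2 difference of 0.57 (SE 0.12, adjusted p 0.0899, and 0.0163 with the block).

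**Figure D3:**
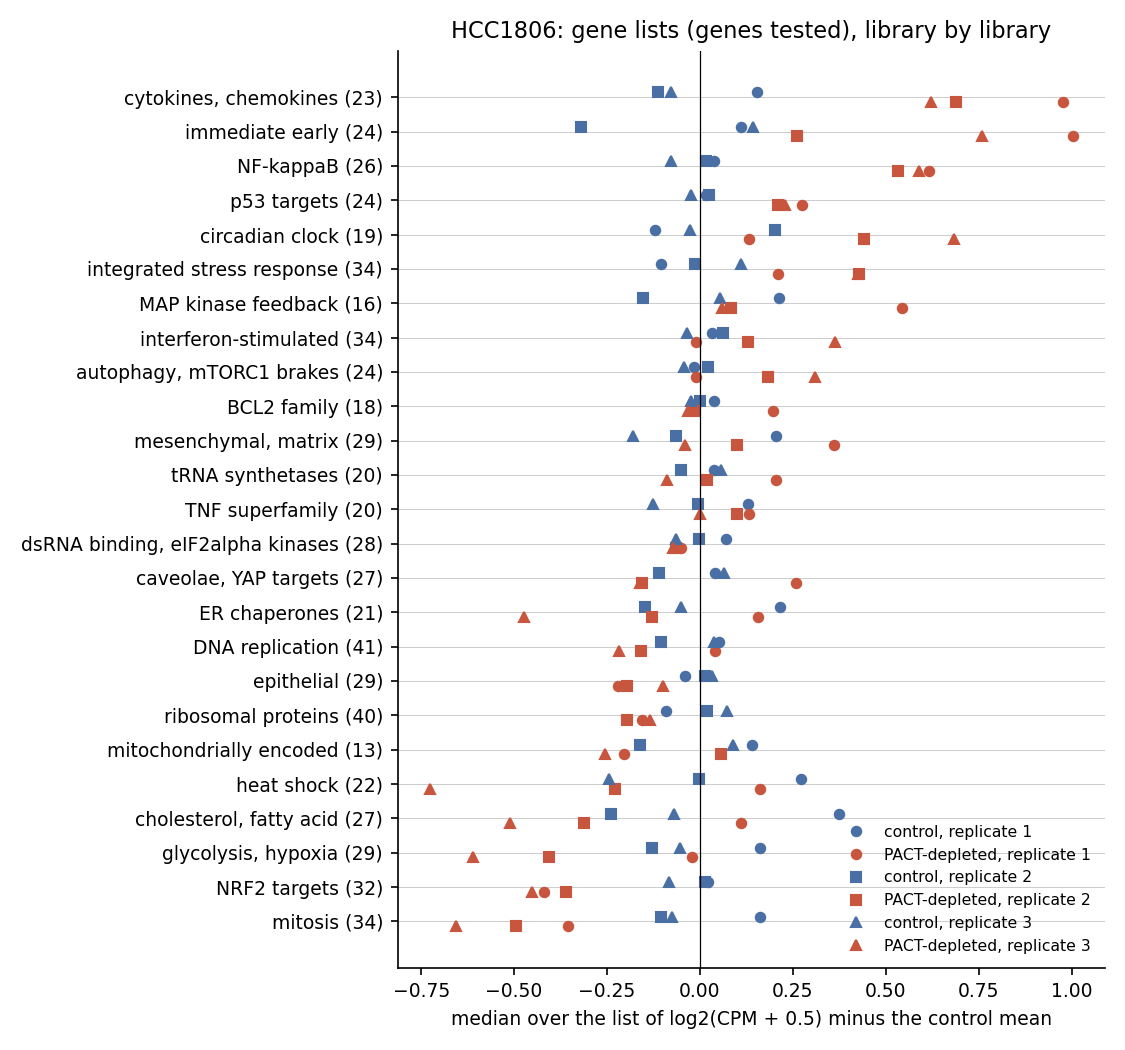
Median over the tested members of each list of log2(CPM + 0.5) minus the control mean, for each HCC1806 library; the number of genes tested is in brackets. The depleted libraries lie apart from the controls for NF-kappaB (0.53 to 0.62 against -0.08 to 0.04), NRF2 targets and mitosis. They also lie apart for the stress response, cytokine, p53 and immediate early lists, and narrowly for the ribosomal and epithelial lists. For heat shock, cholesterol and ER chaperone genes the replicate 1 libraries lie to the right in both groups.

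The plot of lists by library shows that some lists varied more with replicate number than with the guide. Tested as a term beside the guide, an analysis added after the data were seen, replicate number gave 545 genes past the threshold (2.32%). By the fitted replicate term, which both groups share, 296 of these were highest in replicate 1 and 233 lowest there. The order was not checked within each group for these counts or for those of the lists. Of the 74 genes changed by depletion, TNFAIP3 was the 1 among the 545. Heat shock genes had 12 of 22 members past the threshold and highest in replicate 1, against 296 of all 23485 genes tested. Cholesterol and fatty acid synthesis genes had 9 of 27, mesenchymal genes 9 of 29 and MAP kinase feedback genes 4 of 16. HSPA8, the constitutive HSP70, measured 1129, 748 and 555 CPM in control replicates 1 to 3 and 1099, 637 and 354 CPM in the depleted ones. Of the 29 epithelial genes tested, 5 passed and were lowest in replicate 1 by the same fitted term, against 233 of all 23485. In that list 1 passed and was highest there. Single genes with low replicate 1 values included a mucin and a keratin, chosen after their values were seen: MUC4 measured 55.2, 223 and 250.2 CPM in controls and 46.1, 293 and 438 CPM in depleted cells, and KRT4 10.2, 46.6 and 62.1 CPM and then 3.83, 33.4 and 56.0 CPM. Immediate early genes differed less regularly, EGR1 being at 67.9, 7.75 and 199.4 CPM in controls and 282, 34.6 and 128.9 CPM in depleted cells. What the replicate numbers stand for is not stated in the labels.

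**Figure D4:**
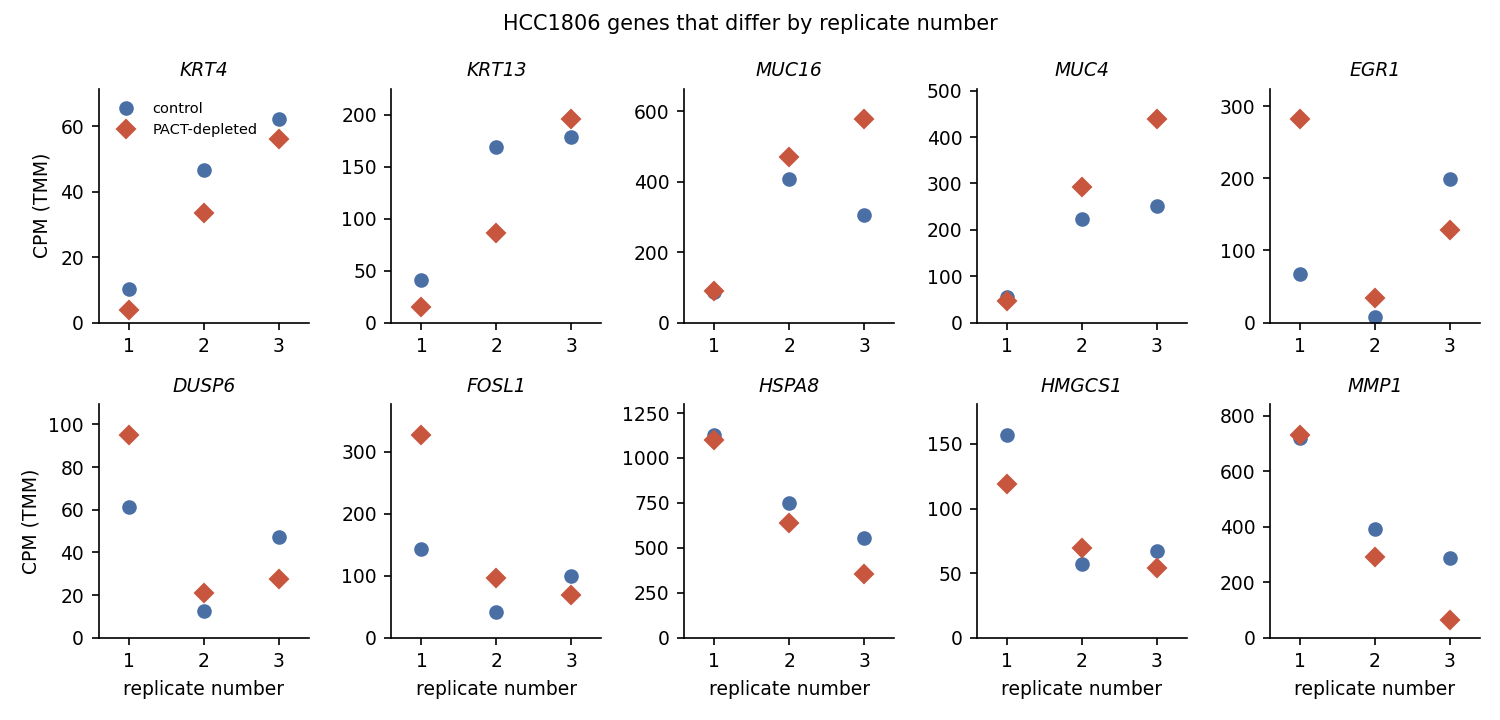
CPM of 10 genes that passed the test for replicate number, by replicate number, controls as blue circles and PACT-depleted libraries as red diamonds. KRT4, KRT13, MUC16 and MUC4 are lowest in replicate 1 of both groups, and HSPA8, HMGCS1, MMP1, DUSP6 and FOSL1 highest, while EGR1 is lowest in replicate 2.

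To ask where HCC1806 differed from the other line, the effects were compared in 1 model of all 12 libraries, in which line and control guide cannot be told apart. The difference between the lines (the interaction) passed for 33 of 27029 genes (0.122%), and for 21 of the 74 genes changed in HCC1806. Since these 74 were chosen by the HCC1806 effect itself, that count is a description. Of the 21, 20 rose in HCC1806 and had a smaller effect in MDA-MB-468, and the other was PRKRA. In this model PRKRA had a log2 difference of -0.20 in MDA-MB-468 (SE 0.10, adjusted p 0.958 by the quasi-likelihood test), against -1.07 in HCC1806. The targeted transcript was thus not shown to fall in MDA-MB-468, where "depleted" refers to the guide. Among the 20 RELB rose less, by 1.07 in MDA-MB-468, where it measured 27.2, 21.9 and 21.6 CPM in controls and 55.8, 44.6 and 47.9 CPM in depleted cells (interaction -1.24, SE 0.18, adjusted p 0.00674). BIRC3 had an effect of 0.62 there (interaction -1.56, SE 0.18, adjusted p 0.00169) and DUSP8 one of 0.18 (interaction -1.58, SE 0.19, adjusted p 0.00189). DHRS2 had an effect of 0.95 (interaction -1.91, SE 0.27, adjusted p 0.00674) and LRRC49 one of 0.43 (interaction -1.75, SE 0.27, adjusted p 0.0127).

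The starting levels of these genes differed as well. In 15 of the 20 genes with a smaller effect, all MDA-MB-468 controls lay above all HCC1806 controls (75%), against 18 of the other 45 rising genes (40%) and 35.8% of all genes tested. BIRC3 was at 23.0 to 25.2 CPM in MDA-MB-468 controls and 6.18 to 8.82 CPM in HCC1806 controls on the common scale. The control libraries enter the interaction too, so the 2 measures are not independent.

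Other rises were found in both lines. Of the 65 genes that rose in HCC1806, 53 had positive values in MDA-MB-468 (44.7% of all genes did), with a median of 0.38, and 12 rose past the threshold there (0.170% of all genes). These 12 were RELB, ATF3, PPP1R15A, NFKB2, INHBE, SPX, ALOXE3, CHILL1, BEST1, NR1D1, PLA2G4C and TNFAIP3. INHBE rose by 2.73 in MDA-MB-468 (SE 0.24, adjusted p 1.91e-05), close to its 2.60 in HCC1806 in the same model, and PPP1R15A by 1.20 (SE 0.12, adjusted p 0.000139) against 1.37. The interactions of INHBE (0.13, SE 0.34) and PPP1R15A (-0.17, SE 0.17) did not pass, which does not show that the effects were alike. ATF3 rose by 1.63 against 2.55 (interaction -0.92, SE 0.19, adjusted p 0.0763). Of the 9 genes that fell in HCC1806, 5 had negative values in MDA-MB-468, with a median of -0.01.

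**Figure D5:**
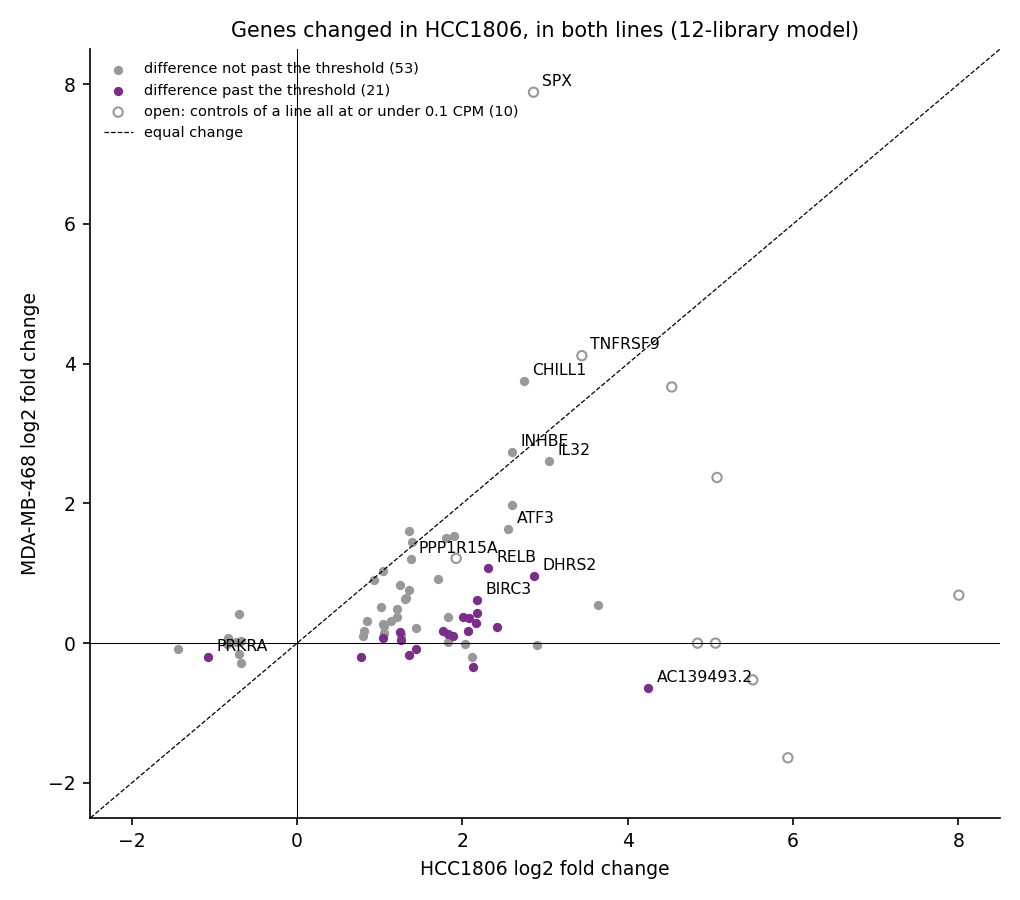
Log2 fold change of the 74 genes in MDA-MB-468 (vertical axis) against HCC1806 (horizontal axis), both from the 12-library model; the dashed line marks equal change. The 21 purple points differ between the lines, 20 of them below the line of equal change; open circles are 10 genes with control libraries of a line all at or under 0.1 CPM, whose fitted values depend on the prior count.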

How the data were processed

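Total RNA was DNase-treated, depleted of rRNA and made into libraries with a NEBNext Ultra II RNA kit, per the labels' protocols. The submitters' processing notes name Trimmomatic 0.36, STAR 2.5.2b, featureCounts and Subread 1.5.2 with GRCh38; strand setting and annotation release are not given in the sources used here. The authors deposited 1 table of raw counts per Ensembl gene, without normalization. Coordinates were matched by Ensembl ID to GENCODE 29 (56898 of 57500 genes); symbols came from a gene name table (56410 matched) or the deposited table.

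The 6 HCC1806 libraries were fitted alone with edgeR 4.0.16 in R 4.3.3: filterByExpr, TMM scaling, and the quasi-likelihood test (glmQLFit, glmQLFTest, two-sided, 1 coefficient per group), with Benjamini-Hochberg adjustment over all genes tested and a threshold of 0.05. The biological coefficient of variation was 0.204. CPM are TMM-scaled, and SE is the absolute log2 fold change over the square root of F. Depth limited the low genes: the floor was 3 counts per library, which covers counting error only. The interaction came from 1 model of all 12 libraries.

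Same-numbered control and depleted libraries deviated together from their group means, with correlations of 0.54, 0.36 and 0.17 over 15626 genes (mean count of 50 or more), so replicate number was also fitted as a block, beside the main fit without it. Over all genes tested the third correlation was 0.09, and depleted replicate 3 correlated better with control replicate 2 (0.41 over the 15626 genes). No label states the pairing. Alternatives were DESeq2 1.42.0, RLE factors, library size only, no filter, a mean of at least 50 counts, the block, the 12-library model, a robust fit, voom with library quality weights (limma 3.58.1), other thresholds, a prior count of 0.5 and leaving out each library. Steps were tested on simulated data.

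The genes, the lists and the comparison were chosen with earlier results of these data known. Named genes were PRKRA, EIF2AK2, the 12 largest changes in each direction with a mean of at least 50 counts and groups without overlap, the 8 smallest adjusted p, of each list up to 5 members past the threshold or otherwise the 2 with the smallest p, and the 3 largest interactions in each direction; any other gene was named after its values were seen. Of the 12 largest rises, 1 is not reported here, and some list members with no call are left out for length. Promoter windows were RefSeq's (GRCh38.p14). Figures were drawn with matplotlib 3.10.9 in Python 3.11.15.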

Additional observations from a re-analysis of the deposited data

Results flagged for a closer look

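The effect of PACT depletion differed between the lines for 10 of the genes chosen by the naming rule. The measure was the interaction term of the 12-library model (MDA-MB-468 minus HCC1806, log2 scale). By the same quasi-likelihood test it also passed for SLC43A2 (-1.69, adjusted p 0.00169), CHAC1 (-1.64, adjusted p 0.0338) and CAV1 (0.89, adjusted p 0.0362). Those genes are named above outside that rule. Genes that rose in HCC1806 had a smaller or opposite value in MDA-MB-468: the interaction was -1.24 for RELB, -1.91 for DHRS2, -1.56 for BIRC3, -1.75 for LRRC49 and -1.58 for DUSP8. It was -2.47 for the pseudogene RPLP0P2, -2.18 for the acute phase gene SAA2, -4.90 for the transcript AC139493.2 and -0.97 for the RNA sensor gene RIGI. For PRKRA, the targeted gene, it was 0.87 (SE 0.14, adjusted p 0.0199), where the transcript measured 41.1, 45.9 and 46.9 CPM in MDA-MB-468 controls and 39.2, 35.5 and 41.6 CPM in depleted cells. When each of the 12 libraries was left out in turn, the PRKRA interaction did not pass in 7 fits, with an adjusted p of up to 0.0931. The interactions of RELB, DHRS2, BIRC3 and DUSP8 passed in all 12 of these fits, while that of LRRC49 did not pass in 1, SAA2 in 5, AC139493.2 in 6, RPLP0P2 in 8 and RIGI in 11 (adjusted p of up to 0.166). The 7 fits for PRKRA lacked control or depleted replicate 2 of HCC1806, any of the MDA-MB-468 controls, or MDA-MB-468 depleted replicate 1 or 3. The lines had different control guides, so line and guide cannot be told apart.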

How the results depend on the processing

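No named gene past the threshold changed sign in the alternatives run, but the medians of the BCL2, caveolar and YAP, double-stranded RNA, mesenchymal, ER chaperone, replication, TNF superfamily and aminoacyl-tRNA synthetase lists did in at least 1, and falls outnumbered rises with the block and in the 12-library model. The number of changed HCC1806 genes (74, with 65 rising and 9 falling) moved with the setting. It was 333 with DESeq2 (199 and 134), 118 with library size only (114 and 4), 645 without a filter (375 and 270) and 46 at a mean of at least 50 counts (43 and 3). The replicate block gave 668 (321 and 347), the 12-library model 672 (314 and 358), voom 326 (176 and 150) and an adjusted p under 0.01 28 (27 and 1). The falling count was 20 with the robust fit and 2 where a change of at least 1 (log2) was also required. Leaving out 1 library gave 18 to 428 genes in all, 17 to 219 rising and 1 to 209 falling, the highest without depleted replicate 1. Scaling by library size only moved the median of all genes to 0.12 and the share of rises from 87.8% to 96.6%; with DESeq2 it was 59.8% and with the block 48.1%. The cause of these shifts was not tested.

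List medians moved by more than the replicate spread with library size only: NF-kappaB to 0.69, TNF superfamily to 0.0853, p53 to 0.53, NRF2 to -0.39, ribosomal to -0.059, double-stranded RNA to 0.0606, epithelial to -0.0518 and the tumour markers to -0.0855. With voom the cytokines moved to 0.77, p53 to 0.29 and NRF2 to -0.42. The double-stranded RNA list was at -0.0574 with DESeq2, -0.0575 with RLE factors, -0.0609 in the 12-library model and -0.025 with the mean filter; the epithelial list was at -0.0267 without a filter and -0.0448 in the 12-library model. Leaving out 1 library gave ranges of 0.52 to 0.63 (NF-kappaB), -0.0814 to 0.155 (TNF superfamily), 0.64 to 1.18 (cytokines), 0.26 to 0.43 (p53), -0.53 to -0.43 (NRF2), -0.19 to -0.13 (ribosomal), -0.0635 to -0.005 (double-stranded RNA), -0.0331 to 0.205 (BCL2), -0.0926 to 0.264 (mesenchymal), -0.247 to -0.0715 (epithelial) and -0.32 to -0.20 (tumour markers).

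The interaction passed for 33 genes, 21 of them among the 74. This was 178 and 42 with DESeq2, 275 and 45 without a filter, 271 and 43 with the replicate block within line, and 9 to 168 and 8 to 32 when 1 library was left out. Of the fitted values of named genes, 828 kept their side of the threshold, 59 moved past it and 117 no longer passed; of their interactions 131 kept it and 39 no longer passed. With 3 libraries a group and few counts for low genes, differences of small size could not be detected.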
